A study of Homo sapiens with 9 samples.

Results

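The genes of the HSP90 chaperone machine were measured on Affymetrix arrays in LNCaP, a cell line from a human prostate cancer that carries the androgen receptor. The group holds 10 genes, which were chosen with earlier results of these data known. They are the HSP90 paralogs HSP90AA1, HSP90AB1, HSP90B1 and TRAP1, and the co-chaperones CDC37, STIP1, AHSA1, PTGES3, CACYBP and ST13. Every probe set whose annotation gives only that symbol was taken and kept apart. This found 20 probe sets for 9 genes, of 22215 probe sets for 11963 genes in all. The expression of AHSA1 is not analysed here.

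The groups set gedunin, a limonoid from the neem tree that is known to disturb HSP90, on top of androgen treatment. For 2 days, all 9 cultures had serum stripped of steroids with charcoal (10% of the medium), and there are 3 arrays per group, named biological replicates in the titles. The first group received the solvents ethanol and DMSO and is called labelled vehicle here. The second received 1 nM R1881, a synthetic androgen, with DMSO and is called labelled R1881. The third received 1 nM R1881 with 20 µM gedunin. The labels give 24 h for each group, except that the titles of the labelled R1881 arrays give 6 h. If 6 h is right, the length of treatment differs in each comparison with that group and cannot be told apart from the agents. No group received gedunin without androgen, and all arrays come from the same cell line.

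HSP90 proteins are ATP-driven dimers that help partly folded client proteins, among them steroid receptors and kinases, to reach an active form. HSP90AA1 is the stress-inducible cytosolic paralog, HSP90AB1 the constitutive cytosolic one, HSP90B1 (also GRP94) works in the endoplasmic reticulum (ER) and TRAP1 in mitochondria. Co-chaperones set the order of the cycle: ST13 and STIP1 act where clients pass from HSP70 to HSP90, CDC37 brings kinases, and PTGES3 (also p23) binds the closed, ATP-bound form. In prostate cells the androgen receptor is held ready for hormone by this machine.

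The labels have to be read with care. KLK3, which encodes prostate-specific antigen and is induced by androgen, measured 11839 ± 513 on the labelled vehicle arrays, 1341 ± 104 on the labelled R1881 arrays and 7216 ± 384 on the gedunin arrays (intensity, mean ± SD, n = 3). KLK2, TMPRSS2 and FKBP5 were also lower on the labelled R1881 arrays, with log2 fold changes of -4.34, -4.08 and -5.33 in limma. These 4 genes go against the labels vehicle and R1881, so each direction below that uses either group rests on its label. If the 2 labels were exchanged, gedunin against labelled vehicle would be the comparison made in the presence of androgen. HMOX1, a stress gene that encodes haem oxygenase, rose on the gedunin arrays, from 44.0 ± 3.34 to 2279 ± 507 against labelled R1881. The luminal markers KRT8 and KRT18 were measured in every group, at 2196, 280 and 732 and at 8623, 1961 and 3985 with labelled vehicle, labelled R1881 and gedunin (mean intensities). The 8 luminal markers measured did not move as one. With labelled R1881 against labelled vehicle 2 were called higher and 5 lower, where 16.3% and 13.2% of all genes were. With gedunin against labelled R1881 5 were higher and 3 lower, where 13.7% and 13.0% of all genes were. The androgen-induced KLK2, KLK3 and TMPRSS2 from above are counted again here, among the lower ones in the former comparison and the higher ones in the latter. FOLH1 and HOXB13 were at 1.40 and 0.60 in the former comparison, and ACP3, FOLH1 and HOXB13 at -2.61, -0.92 and -1.08 in the latter. All 5 basal markers measured, KRT5 and KRT14 among them, had group means below 52.4, the lowest median of an array, and none of them or of the 5 leukocyte markers was called. Of 7 fibroblast markers, VIM was called, higher by 0.30 with gedunin against labelled vehicle. COL1A1, COL1A2, DCN, PDGFRB, VIM and the leukocyte marker CD3E had all group means above 52.4. COL1A1 was the highest, at 181, 185 and 185 with labelled vehicle, labelled R1881 and gedunin. COL3A1, LUM and the other leukocyte markers lay below 52.4. In such bulk RNA, fewer cells of a type and less RNA per cell cannot be told apart.

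Some of these genes are textbook targets of stress-responsive transcription factors, so the bases before their annotated starts are shown first. The promoter table of RefSeq (GRCh38.p14) held 15 windows of 300 bases, 250 before to 50 from the start site on, for 9 of the 10 genes. On both strands, 4 motifs were searched: the heat shock element as 2 units (GAANNTTC or TTCNNGAA) and as 3 units (GAANNTTC, then NN, then GAA), which contains the shorter one, the ER stress response element (CCAAT, then 9 free bases, then CCACG) and the core of the antioxidant response element (TGACNNNGC). The stretches below are shown because they carry the heat shock and ER elements of 3 HSP90 genes described first below, and the short one because STIP1 has its match just after a start. Each runs 5′ to 3′ on the strand of the gene, and capitals mark the motif matches.
HSP90AA1, start 2, minus strand, chr14:102087045-102087294: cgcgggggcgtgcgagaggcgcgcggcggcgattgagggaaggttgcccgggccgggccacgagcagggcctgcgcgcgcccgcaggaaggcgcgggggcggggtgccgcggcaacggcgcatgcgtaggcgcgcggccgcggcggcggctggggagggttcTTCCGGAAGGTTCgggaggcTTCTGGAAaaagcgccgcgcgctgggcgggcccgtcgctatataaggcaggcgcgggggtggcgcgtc
HSP90AB1, start 3, plus strand, chr6:44247693-44247942: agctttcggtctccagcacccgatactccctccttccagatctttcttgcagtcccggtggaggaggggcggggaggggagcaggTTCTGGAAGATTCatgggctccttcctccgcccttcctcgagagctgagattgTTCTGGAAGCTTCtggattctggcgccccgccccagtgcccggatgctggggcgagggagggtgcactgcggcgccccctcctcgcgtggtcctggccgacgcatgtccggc
HSP90B1, start 1, plus strand, chr12:103930160-103930409: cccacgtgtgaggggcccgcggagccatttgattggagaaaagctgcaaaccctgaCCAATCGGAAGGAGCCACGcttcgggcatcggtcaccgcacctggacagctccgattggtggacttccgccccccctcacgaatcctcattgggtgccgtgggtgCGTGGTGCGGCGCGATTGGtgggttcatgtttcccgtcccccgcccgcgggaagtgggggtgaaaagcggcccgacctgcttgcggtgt
STIP1, start 2, plus strand, chr11:64186178-64186197: agtaggTTCCAGAAggcggc

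The 3-unit heat shock element was found once before the second start of HSP90AA1, from 88 to 76 bases before it. It was found at 2 places before the third start of HSP90AB1, from 165 to 153 and from 112 to 100 bases before it. Of all 35116 windows, 0.49% hold it. The 2-unit form, present in 13.5% of all windows, was found in these same windows and once in STIP1. The ER stress response element lay in 2 orientations before the start of HSP90B1, and 0.0769% of all windows hold it. The antioxidant core, present in 13.3% of all windows, was found in 6 of the 15 windows. By gene these were 5 of 9 (HSP90AB1, TRAP1, AHSA1, PTGES3 and CACYBP), where 16.1% of all genes have it in a window. The windows of CDC37 held none of the 4 motifs. A match describes letters in the window and does not show that a factor binds there.

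**Figure D1:**
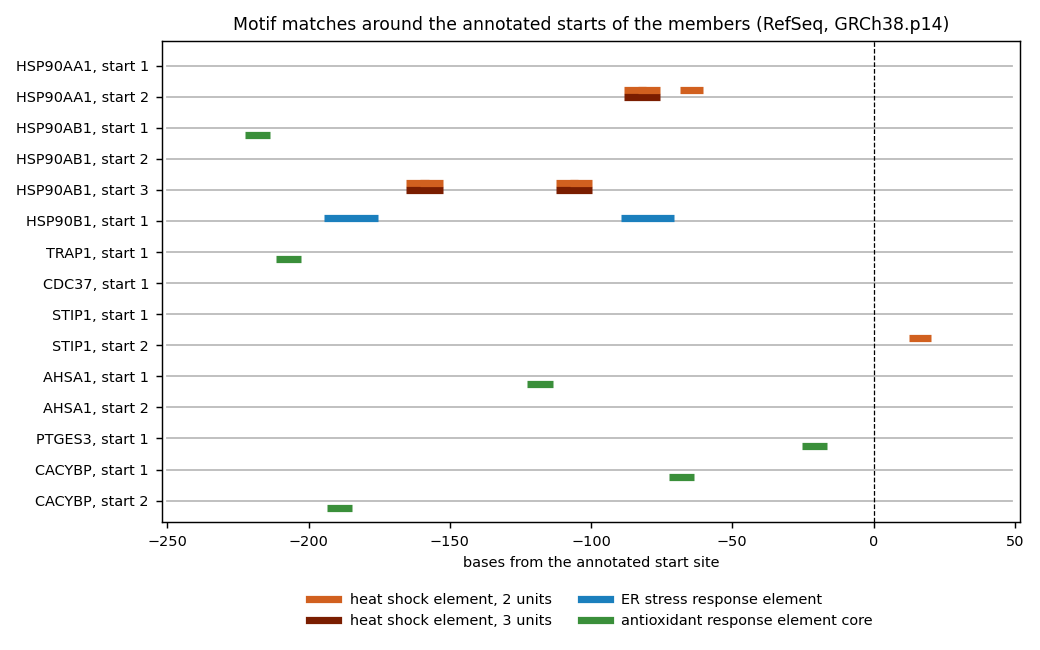
Motif matches in the 15 promoter windows, by distance in bases from the annotated start site (dashed line); bars are coloured by motif. Heat shock elements of 3 units appear in 1 window of HSP90AA1 and 1 of HSP90AB1, and ER stress response elements only in that of HSP90B1 among these windows.

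With gedunin, 6 of the 9 measured genes (HSP90AA1, HSP90AB1, HSP90B1, STIP1, PTGES3 and CACYBP) rose above both other groups on their brightest probe set. TRAP1 and CDC37 were lower with gedunin in 1 comparison each, and ST13 passed in none. How many of all genes rose above both other groups was not counted, and the shares below are for each comparison alone. Values are RMA intensities on a linear scale, fold changes are differences of log2 intensity, and a probe set is called where its adjusted p (limma, Benjamini-Hochberg over all 22215 probe sets, two-sided) is below 0.05. Against labelled R1881, 14 of the 20 probe sets were higher on the gedunin arrays and 1 lower, where 12.4% and 11.9% of all probe sets were called in these directions (24.3% in either). Against labelled vehicle 14 were again higher and 1 lower, where 12.9% and 10.6% of all were (23.5% in either). These comparisons share the gedunin arrays. Between labelled R1881 and labelled vehicle, 9 were higher and 3 lower with labelled R1881, where 14.8% and 12.2% of all were (27.0% in either). The median log2 fold change of the 20 was 0.34, 0.37 and 0.01 in this order, and that of all probe sets was -0.01, -0.01 and 0.00. Probe sets of a gene share its RNA, and by gene (brightest probe set) 6 of 9 were higher and 1 lower against labelled R1881, where 13.7% and 13.0% of all genes were (26.7% in either direction). Against labelled vehicle the counts were again 6 and 1, where 14.8% and 11.4% of all genes were (26.2% in either). Between labelled R1881 and labelled vehicle 3 genes were higher and 2 lower, where 16.3% and 13.2% of all were (29.5% in either). All measured members lay above the array medians, the lowest single value being 85.7.

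**Figure D2:**
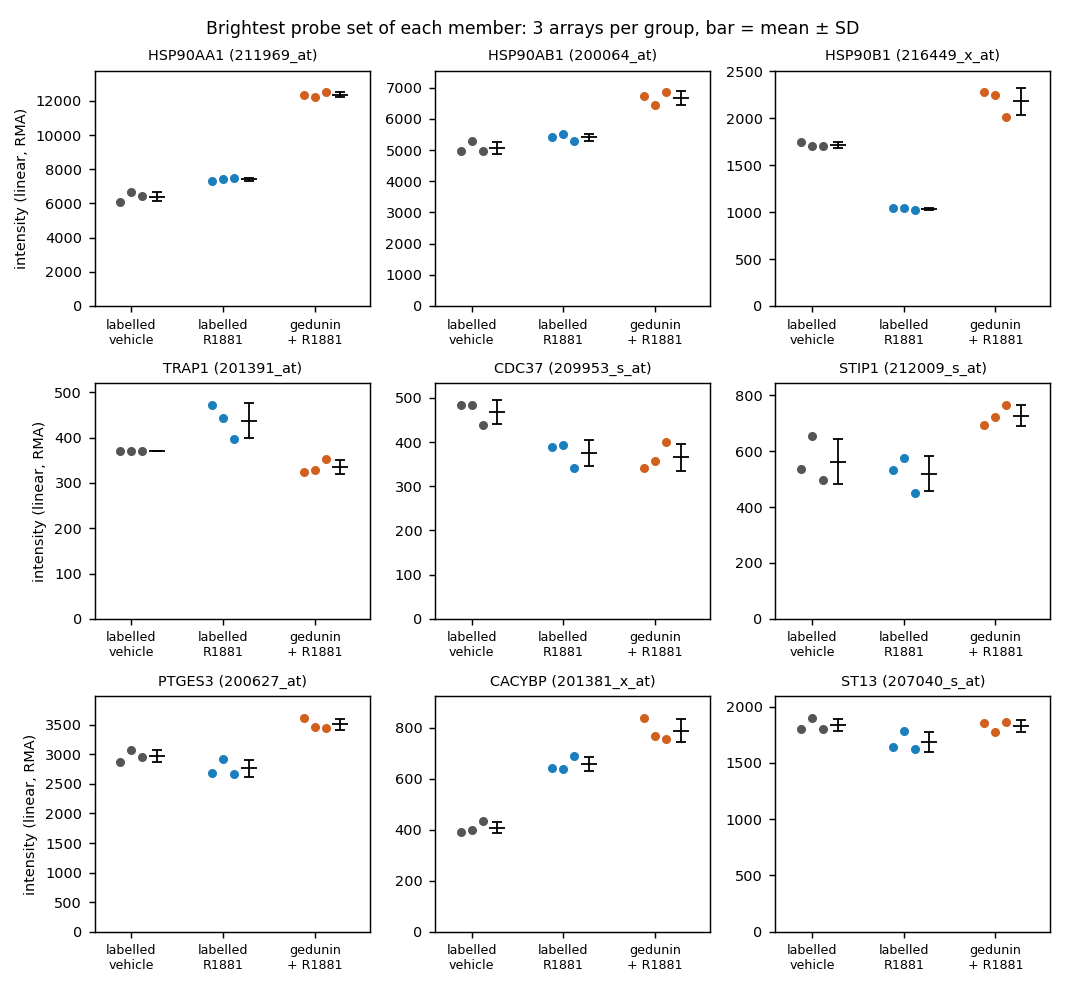
Intensity (linear scale, from 0) of the brightest probe set of each of the 9 genes, with 1 point per array, 3 arrays per group, and a bar for mean ± SD. HSP90AA1 stands between 12215 and 12514 on the gedunin arrays and at most at 7470 elsewhere, while the vehicle and gedunin arrays of ST13 overlap.

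HSP90AA1, the inducible cytosolic paralog, rose with gedunin on all 4 of its probe sets. Its brightest probe set, 211969_at, measured 6107, 6641 and 6422 on the labelled vehicle arrays, 7282, 7447 and 7470 on the labelled R1881 arrays and 12358, 12215 and 12514 on the gedunin arrays. The 3 groups do not overlap, and the gedunin arrays lie far above the rest. The log2 fold change was 0.74 ± 0.05 (SE) against labelled R1881 (limma adjusted p = 3.61e-07) and 0.95 ± 0.05 against labelled vehicle (adjusted p = 4.22e-08). The gene was also higher with labelled R1881 than with labelled vehicle, by 0.21 ± 0.05 (adjusted p = 0.00898).

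The other HSP90AA1 probe sets moved the same way with different sizes. Against labelled R1881 the 4 ran from 0.74 to 1.20 on the log2 scale, and against labelled vehicle from 0.95 to 1.52, highest for 211968_s_at. That probe set measured 2253, 2538 and 2517 with vehicle, 3054, 3023 and 3054 with labelled R1881, and 6959, 6645 and 7374 with gedunin. On 214328_s_at the second gedunin array, at 7762, was below the other 2, at 9280 and 9512, and still above the highest labelled R1881 array at 5427. In the comparison of labelled R1881 with labelled vehicle the 4 rises lay between 0.21 and 0.39, all called.

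HSP90AB1, the constitutive cytosolic paralog, rose less. Probe set 200064_at measured 4964, 5275 and 4965 with vehicle, 5409, 5512 and 5287 with labelled R1881, and 6730, 6438 and 6861 with gedunin. The gedunin arrays stand apart, and the other groups are separated by a narrow gap. The rise with gedunin was 0.31 ± 0.05 against labelled R1881 (limma adjusted p = 0.000952) and 0.40 ± 0.05 against labelled vehicle (adjusted p = 0.000123). The second probe set, 214359_s_at, gave 0.26 ± 0.05 and 0.48 ± 0.05.

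Between labelled R1881 and labelled vehicle the HSP90AB1 probe sets disagreed on the call. On 214359_s_at the difference of 0.22 ± 0.05 passed (limma adjusted p = 0.00756), and on 200064_at the difference was 0.09, with a 95% interval from -0.03 to 0.21 (adjusted p = 0.26). With an intensity trend and a robust prior in the variance model together, the latter had an adjusted p of 0.0477.

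HSP90AA1 rose more than HSP90AB1 within the same arrays. The log2 ratio of their brightest probe sets shows unequal change and not which transcript is more abundant. It was 0.33 ± 0.04 with vehicle, 0.45 ± 0.04 with labelled R1881 and 0.89 ± 0.03 with gedunin (SD, n = 3). On these probe sets the folds with gedunin therefore differ by 1.35 times against labelled R1881 and by 1.47 times against labelled vehicle. The HSP90AA1 probe sets ran from 0.74 to 1.20 and from 0.95 to 1.52 in these comparisons, so the size depends on the probe set. For each of the 3 differences the permutation test (exact, two-sided) gave p = 0.1, which 3 against 3 arrays cannot go below, and 0.112 after adjustment over the 9 such tests made.

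HSP90B1, the ER paralog, was the only one of the 4 paralogs that was called lower with labelled R1881 than with labelled vehicle and higher with gedunin than with either. Probe set 216449_x_at measured 1751, 1700 and 1700 with vehicle, 1043, 1043 and 1024 with labelled R1881, and 2280, 2245 and 2017 with gedunin. The groups do not overlap, and labelled R1881 is lowest. The log2 fold changes were -0.73 ± 0.06 for labelled R1881 against labelled vehicle (limma adjusted p = 8.22e-07), 1.07 ± 0.06 for gedunin against labelled R1881 (adjusted p = 3.28e-08) and 0.34 ± 0.06 for gedunin against labelled vehicle (adjusted p = 0.00076).

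The second HSP90B1 probe set, 216450_x_at, was dimmer and more variable. It measured 413, 415 and 414 with vehicle, 366, 355 and 302 with labelled R1881, and 563, 599 and 442 with gedunin. Its rise against labelled R1881 was called, at 0.64 ± 0.10. Its rise of 0.36 ± 0.10 against labelled vehicle (adjusted p = 0.0238) was not called without gedunin replicate 1 or 2 or without any 1 of the 3 vehicle arrays, with adjusted p between 0.0611 and 0.111. Its difference of -0.29 ± 0.10 between labelled R1881 and labelled vehicle did not pass (adjusted p = 0.0601), though it passed under several other settings, with adjusted p from 0.0139 to 0.0468. Both probe sets carry the suffix that marks probes which may also match other sequences.

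A further 2 probe sets are annotated to HSP90B1 together with MIR3652 and are not counted above. On 200599_s_at the arrays read 3664, 3717 and 3855 with vehicle, 1951, 2149 and 2189 with labelled R1881, and 4396, 3906 and 4533 with gedunin. The fall of 0.84 and the rise of 1.03 there have the direction and about the size seen on 216449_x_at. On 200598_s_at they were -0.89 and 1.13. Against labelled vehicle the gedunin arrays differed by 0.24 ± 0.06 on 200598_s_at (limma adjusted p = 0.0118) and by 0.19 ± 0.07 on 200599_s_at (adjusted p = 0.0704).

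Set within arrays, the HSP90AA1 to HSP90B1 log2 ratio was 1.90 ± 0.08 with vehicle, 2.84 ± 0.03 with labelled R1881 and 2.51 ± 0.11 with gedunin (SD, n = 3). The ER paralog thus moved by -0.94 relative to the cytosolic one between the first 2 groups, and by 0.33 between labelled R1881 and gedunin. The exact permutation p was 0.1 for each of the 3 differences, again the smallest possible.

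TRAP1, the mitochondrial paralog, moved against the others with gedunin. Its probe set 201391_at measured 370, 371 and 370 with vehicle, 472, 444 and 396 with labelled R1881, and 325, 328 and 353 with gedunin. The groups do not overlap, with labelled R1881 highest and gedunin lowest. TRAP1 fell by 0.38 on the log2 scale (SE 0.07) with gedunin against labelled R1881 (limma adjusted p = 0.000942). Against labelled vehicle the difference was -0.15 ± 0.07 and did not pass (adjusted p = 0.164).

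The rise of TRAP1 with labelled R1881 over labelled vehicle was 0.24 ± 0.07 (adjusted p = 0.0202). It was no longer called without vehicle replicate 1 (adjusted p = 0.0558), vehicle replicate 3 (0.0548), R1881 replicate 1 (0.0886) or R1881 replicate 2 (0.0608). Exactly equal deposited values within a group occurred on 6 of the 20 probe sets, and their source was not tested. Within arrays, the HSP90AA1 to TRAP1 log2 ratio was 4.11 ± 0.06, 4.08 ± 0.15 and 5.21 ± 0.05 with vehicle, labelled R1881 and gedunin. With gedunin it was 1.12 above labelled R1881 (exact permutation p of 0.1), and between the first 2 groups it differed by -0.02 (exact permutation p of 0.9).

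**Figure D3:**
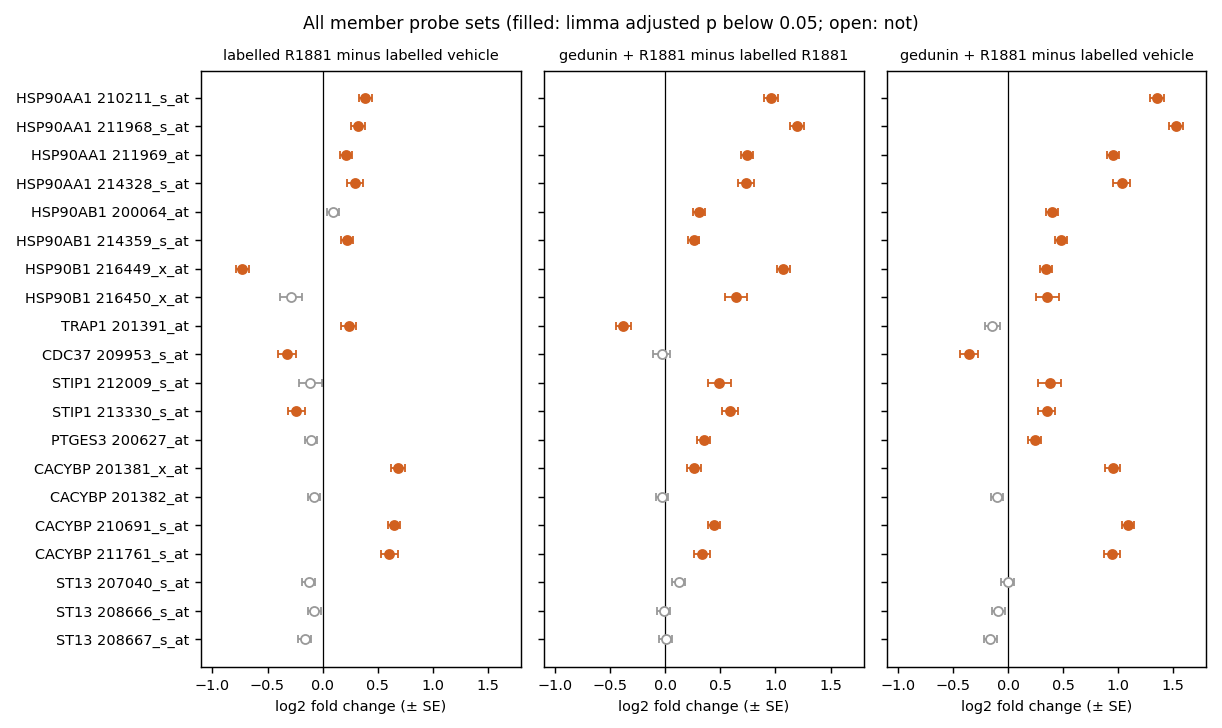
Log2 fold change ± SE of each of the 20 probe sets in the 3 comparisons; filled points passed limma at an adjusted p below 0.05. In both gedunin comparisons 14 points lie to the right and pass, and the 3 ST13 probe sets and CACYBP 201382_at pass in none.

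Among the co-chaperones, STIP1, which links HSP70 to HSP90, rose with gedunin. Its probe set 212009_s_at measured 536, 655 and 498 with vehicle, 531, 576 and 451 with labelled R1881, and 692, 723 and 766 with gedunin. The gedunin arrays lie above all others, and the other groups overlap. The rise against labelled R1881 was 0.49 ± 0.11 (limma adjusted p = 0.00362) and on 213330_s_at 0.59 ± 0.08 (adjusted p = 6.75e-05).

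Against labelled vehicle STIP1 rose by 0.38 ± 0.11 on 212009_s_at (limma adjusted p = 0.0192) and by 0.35 ± 0.08 on 213330_s_at (adjusted p = 0.00408). The first of these calls ended without gedunin replicate 2 (adjusted p = 0.0539), gedunin replicate 3 (0.077), vehicle replicate 1 (0.0745) or vehicle replicate 3 (0.0913). On 213330_s_at labelled R1881 was below labelled vehicle by 0.24 on the log2 scale (adjusted p = 0.033). That call ended without vehicle replicate 2 (0.13), R1881 replicate 2 (0.0664) or R1881 replicate 3 (0.118), in a fit of these 2 groups alone (0.0513) and after a second quantile normalisation (0.0722). On 212009_s_at the same difference was -0.11, with a 95% interval from -0.34 to 0.12.

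PTGES3, the late-acting co-chaperone p23, rose with gedunin as well. It measured 2878, 3077 and 2948 with vehicle, 2691, 2927 and 2669 with labelled R1881, and 3620, 3464 and 3443 with gedunin. All gedunin arrays exceed all others. The rise was 0.35 ± 0.06 against labelled R1881 (limma adjusted p = 0.000594) and 0.24 ± 0.06 against labelled vehicle (adjusted p = 0.008). Between the other groups, which overlap, the difference was -0.10, with a 95% interval from -0.23 to 0.02.

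CACYBP, which binds calcyclin and has a fold related to that of p23, rose at both steps on most of its probe sets. Probe set 201381_x_at, whose suffix marks probes which may also match other sequences, was the brightest. It measured 390, 400 and 434 with vehicle, 643, 640 and 690 with labelled R1881, and 839, 766 and 757 with gedunin. The groups do not overlap, and the larger step lies between the first 2. The log2 fold change was 0.69 ± 0.06 for labelled R1881 against labelled vehicle (limma adjusted p = 3.42e-06) and 0.95 ± 0.06 for gedunin against labelled vehicle (adjusted p = 2.69e-07). Gedunin against labelled R1881 gave 0.26 ± 0.06 (adjusted p = 0.00952), which was not called without gedunin replicate 1 (adjusted p = 0.0512).

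A pair of further CACYBP probe sets behaved alike. 210691_s_at and 211761_s_at gave 0.65 and 0.61 for the first of these steps and 0.44 and 0.34 for gedunin against labelled R1881, all called. The fourth, 201382_at, was the dimmest CACYBP probe set, with values from 85.7 to 100 on the 9 arrays. These lie above the array medians, and the probe set passed in no comparison. Its difference between gedunin and labelled vehicle was -0.10, with a 95% interval from -0.22 to 0.02.

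CDC37, the kinase-specific co-chaperone, did not follow the rise. It measured 483, 484 and 438 with vehicle, 390, 394 and 341 with labelled R1881, and 341, 357 and 400 with gedunin. The vehicle arrays lie above all others, and the other groups overlap. CDC37 was lower than with vehicle by 0.32 ± 0.08 on the log2 scale with labelled R1881 (log2 fold change -0.32, limma adjusted p = 0.00757). With gedunin the log2 fold change against vehicle was -0.36 ± 0.08 (adjusted p = 0.00458). Gedunin against labelled R1881 gave -0.03, with a 95% interval from -0.21 to 0.14.

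ST13, the HSP70-binding co-chaperone, passed on none of its 3 probe sets in any comparison under the settings used throughout. Its brightest, 207040_s_at, measured 1805, 1902 and 1805 with vehicle, 1642, 1788 and 1624 with labelled R1881, and 1860, 1772 and 1861 with gedunin. Vehicle and gedunin arrays overlap, and labelled R1881 arrays lie just below vehicle. That difference was -0.13, with a 95% interval from -0.25 to 0.00 (adjusted p = 0.144), and passed with an intensity trend and a robust prior (adjusted p = 0.0396). The difference between gedunin and labelled R1881 was 0.12, with a 95% interval from -0.01 to 0.25. Between gedunin and labelled vehicle it was -0.01, from -0.13 to 0.12. On 208667_s_at labelled R1881 and gedunin were both 0.16 below vehicle on the log2 scale, with adjusted p of 0.0578 and 0.0691, and passed under some other settings (adjusted p from 0.0172 to 0.0405).

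The wider HSP90 network was read from a list of 28 further co-chaperones and other genes linked to HSP90. Of these, 23 had a probe set annotated to the gene alone. Against labelled R1881, 5 were called higher with gedunin and 2 lower (median log2 fold change 0.09), where 13.7% and 13.0% of all genes were. PPID, a cyclophilin with a domain that binds HSP90, rose by 0.51 ± 0.07 and NUDC, a p23-like protein, by 0.48 ± 0.06. TTC1, a tetratricopeptide protein, rose by 0.37. Against labelled vehicle 9 were higher and 1 lower (median 0.08), where 14.8% and 11.4% of all genes were. RPAP3, part of the R2TP complex, was higher by 0.73 ± 0.07 there and FLCN, a client and partner of HSP90, by 0.45 ± 0.12. FKBP5, the androgen-induced immunophilin, had the widest range of the list, from -5.33 with labelled R1881 to -3.91 with gedunin, both against labelled vehicle, and rose by 1.42 between them. Its mean of 45.1 on the labelled R1881 arrays lies under the array medians, so its folds are approximate. Between labelled R1881 and labelled vehicle 5 of the 23 were higher and 2 lower, near the 16.3% and 13.2% of all genes. Among them were RPAP3 at 0.72, TSC1 at 0.33 and NASP, a histone chaperone, at 0.28.

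Cytosolic heat shock genes, the usual companions of HSP90AA1, rose with gedunin. Of 16 listed, 12 were measured. HSPA1A, HSPA1B, HSPA8 and HSF2 had no probe set annotated to the gene alone and were not read. Of the 12, 9 were called higher and 0 lower against labelled R1881 (median 0.78), where 13.7% and 13.0% of all genes were. Against labelled vehicle 11 were higher and 0 lower (median 0.84), where 14.8% and 11.4% of all genes were. DNAJB4, an HSP40, rose by 1.64 ± 0.10 against labelled R1881, the HSP70 partner BAG3 by 1.49 ± 0.05, and the small heat shock genes HSPB8 and HSPB1 by 1.32 and 1.03. DNAJB4 lay below 52.4 in the mean of both other groups, so its rise is from a level near the background. HSPB8 also started near the array medians, with means of 49.5 with labelled vehicle and 61.0 with labelled R1881, so its folds are approximate. Between labelled R1881 and labelled vehicle 3 of the 12 were higher and 2 lower, where 16.3% and 13.2% of all genes were. HSPA4L, of the HSP110 family, was higher by 1.25 and HSPB1 and HSPA1L by 0.50 and 0.39, while DNAJB1, an HSP40, was at -0.32. With gedunin DNAJB1 was higher by 0.90 against labelled R1881 and by 0.57 against labelled vehicle. HSPA4L and HSPA1L had labelled vehicle means of 23.5 and 49.5, under the array medians, so their differences are approximate.

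ER folding genes ran alongside HSP90B1. Of 17 measured without HSP90B1 itself, 16 were lower and 0 higher with labelled R1881 than with labelled vehicle (median -0.90), where 13.2% and 16.3% of all genes were. With gedunin against labelled R1881, 16 were higher and 0 lower (median 0.93), where 13.7% and 13.0% of all genes were. These comparisons share the labelled R1881 arrays. DNAJB9, an ER co-chaperone of the HSP40 type, was at -2.75 and 2.19, MANF at -1.49 and 1.81, and SDF2L1 at -1.48 and 1.69 in these 2 comparisons. HERPUD1, which serves ER-associated degradation, was at -1.68 in the first, and CRELD2 at 2.00 in the second. HSPA5, the ER HSP70 known as BiP, was at -0.80 ± 0.06 and 0.80 ± 0.06, chosen here as the partner of HSP90B1 after its values were seen. Against labelled vehicle, 6 of the 17 were higher and 2 lower with gedunin (median 0.06), where 14.8% and 11.4% of all genes were. Called genes there were CRELD2 at 0.81, DNAJC3 at 0.37, DNAJB9 at -0.55 and HERPUD1 at -0.54, among others. HSP90B1 itself was at 0.34 in that comparison.

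Mitochondrial folding genes, the surroundings of TRAP1, split. Of 13 measured, 6 were higher and 2 lower with gedunin than with labelled R1881 (median 0.07), where 13.7% and 13.0% of all genes were. LONP1, a matrix protease, rose by 0.65 ± 0.06 and HSPE1, the co-chaperonin HSP10, by 0.60 ± 0.06. PPIF, a mitochondrial cyclophilin, and CLPX, the unfoldase of the ClpXP protease, were at -0.59 and -0.44, the direction of TRAP1. Against labelled vehicle 4 were higher and 4 lower, where 14.8% and 11.4% of all genes were, with HSPD1, the chaperonin HSP60, at 0.39 and CLPX at -0.65. With labelled R1881 against labelled vehicle 2 were higher and 2 lower, near the 16.3% and 13.2% of all genes, GRPEL1 at -0.38 and PPIF at 0.23 among them. Without vehicle replicate 1, R1881 replicate 1 or R1881 replicate 2 that count was 0 higher and 2 lower.

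**Figure D4:**
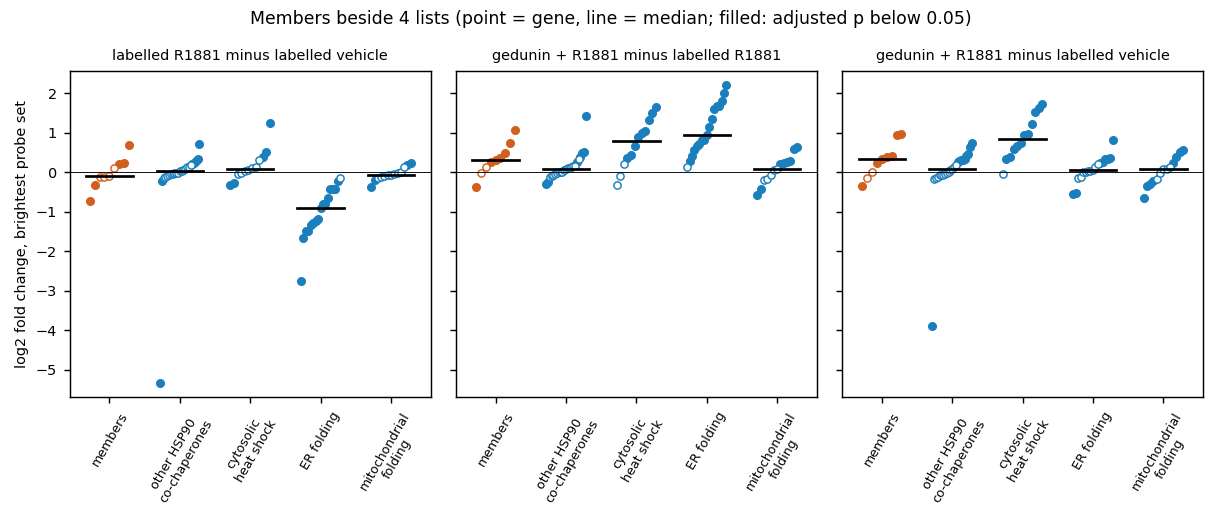
Log2 fold change of the brightest probe set per gene for the 9 members and 4 lists in the 3 comparisons; each point is a gene, lines are medians, filled points passed limma. ER folding genes have a median of -0.90 in the first panel and 0.93 in the second, and the members one of -0.10 and 0.31.

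Genes with the most similar course over the 9 arrays were found by the root mean square difference of standardised log2 profiles, among 7071 other genes above the lowest array median. Nearest to HSP90AA1 were PIR, PRDX1, PSMB1 and ID1, with differences from 0.057 to 0.094, where the median gene differs by 1.36. Their rises with gedunin against labelled R1881 were 1.61, 0.80, 0.39 and 0.99. Nearest to HSP90AB1 were UBE2S, APTX, PNPLA4 and PSMB3 (0.073 to 0.149), and nearest to HSP90B1 were DAD1, MSMO1, GARS1 and VEGFA (0.0996 to 0.118). DAD1, a subunit of the ER oligosaccharyltransferase, was at -0.71 with labelled R1881 against labelled vehicle and at 1.06 with gedunin against labelled R1881. The arrays form 3 groups, so likeness here mostly describes the order and spacing of 3 group means.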

How the data were processed

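RNA of 9 LNCaP cultures, 3 per treatment, was hybridised to Affymetrix arrays. The deposited values are linear-scale intensities, 1 for each probe set of an array, made by the authors with RMA per the submitters' processing notes, which name no version. RMA makes the arrays' distributions alike, so a shift shared by most transcripts would be hidden. Array medians lay between 52.4 and 54.5. The number of arrays limits the precision. Separate cultures are stated only as biological replicates.

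All tests used log2 intensities, and 62 control probe sets of 22277 were left out. Of the other 22215, 19064 had 1 gene symbol in the platform annotation, 1043 several and 2108 none; 12 with 1 symbol had no match in RefSeq (GRCh38.p14, used for names). Genes outside the 10 members were read from their brightest probe set. limma 3.58.1 in R 4.3.3 fitted 1 coefficient per group over all 9 arrays (6.08 prior degrees of freedom), with Benjamini-Hochberg adjustment over the 22215 probe sets. The fit was tested on simulated data of 22215 probe sets. Over the 3 comparisons it recovered 56% to 70% of 1.3-fold changes, 88% to 92% of 1.5-fold and 100% of 2-fold. False calls numbered 3 to 9. Changes near 1.3-fold can therefore be missed, and a member that did not pass may still differ by that much.

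The members and lists were chosen with earlier results of these data known. All members are named, and of each list up to 4 called genes with the largest change per comparison, plus fixed androgen and gedunin check genes. Ratios within arrays used exact two-sided permutation tests; the planned AHSA1 ratio and likeness were not run. Alternatives were the 2 groups alone, an intensity trend with a robust prior, an offset of 16, a filter on dim probe sets, 1 probe set per gene, median centring, quantile normalisation, a replicate block and leaving out each array.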

Additional observations from a re-analysis of the deposited data

How the results depend on the processing

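Of the 60 member values (20 probe sets in 3 comparisons), 50 kept their call under every alternative run, 5 lost it and 5 gained it under at least 1, and 0 called values changed sign. With 1 probe set per gene, which tests fewer features, 5, 7 and 7 of 9 members were called in the comparisons labelled R1881 minus labelled vehicle, gedunin minus labelled R1881 and gedunin minus labelled vehicle, against 12, 15 and 15 of 20 probe sets. All calls were then 3624, 3277 and 3219 genes against 6007, 5406 and 5223 probe sets. Leaving out an array gave 10 to 13, 14 to 15 and 13 to 15 called member probe sets and 5209 to 5842, 4614 to 5459 and 4286 to 5541 in all. The replicate numbers gave no uniform pairing of the arrays. Deviations from the group means correlated between -0.104 and 0.144 for same-numbered and between -0.152 and 0.161 for other arrays. Between labelled vehicle and labelled R1881 the 3 same-numbered pairs were at 0.123, 0.144 and 0.0484, and other pairs from -0.152 to 0.0635. Same-numbered pairs with a gedunin array lay between -0.104 and 0.0108. The highest value, 0.161, joined gedunin replicate 2 and R1881 replicate 1. Whether arrays shared a batch was not tested, and the replicate block used the numbers as given. With the replicate block 13, 15 and 15 member probe sets were called, so the block changed 1 call: the fall of HSP90B1 on 216450_x_at with labelled R1881, at an adjusted p of 0.0223. After a second quantile normalisation the HSP90AA1 to HSP90B1 ratio changed by 0.82 and -0.20 in the first and second comparison, in place of 0.94 and -0.33; the cause was not tested. The HSP90AA1 to TRAP1 ratio in the first comparison lay between -0.10 and 0.045 when an array was left out, so its sign is not settled. The alternatives to these ratios were chosen after seeing the data.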
